A study of Zea mays with 5 samples.

Results

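Of the 179 stretches of 1 kb that could be scored for CG methylation in a de novo centromere of maize, 9 were almost free of it, and these 9 bins and their borders are described here. They lie on chromosome 9 between positions 4309438 and 4546437 of B73 RefGen_v3, inside a mapped region from 4301438 to 4587776. The bins were cut from the start of the map and chosen by their CG methylation level, at 5% or less (methylated over total reads) with at least 5 CG cytosines of at least 5 reads each. They hold 517 of the 26750 cytosines with at least 5 reads. The CG level inside them is therefore a description of the choice. The levels in the other contexts and the cytosines of 3 or 4 reads were not used in choosing them, while coverage and CG content entered through the minimum of 5 CG cytosines of at least 5 reads.

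The map comes from 1 library of young leaves of Derivative 3-3, which according to the title of the series carries the new centromere. Per the labels' protocols, micrococcal nuclease was used to cut the chromatin of nuclei, and rabbit antibodies raised on maize CENH3 peptides recovered the part that holds CENH3, the histone H3 variant of active centromeres. This DNA was then treated with bisulfite, which turns unmethylated C into T in the reads. Expression was profiled in 4 further libraries (RNA-seq of Derivative 3-3 and control young leaves and seedlings), not analysed here. There was no replicate, no unprecipitated DNA and no control material for methylation, so no test between samples was possible. Intervals below are Wilson 95% intervals for levels, counted over reads, and for shares of cytosines, counted over cytosines; those of differences are Newcombe 95% intervals, and a count of 0 is read as at most 3 counts. They cover counting error only, and they are too narrow as a measure of independent molecules because 1 read covers several neighbouring cytosines. A level is a mean over the cells and chromosome copies that gave reads, and a partial level in every cell cannot be told apart from a full level in some of them.

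Plants methylate cytosine in CG, CHG and CHH contexts, where H is A, C or T. CG methylation is copied after replication by MET1-type enzymes, CHG methylation is maintained by chromomethylases that bind methylated histone H3, and CHH methylation is set anew by chromomethylases and by the RNA-directed pathway. In maize most DNA between genes is repetitive and carries dense CG and CHG methylation, while promoters and other regulatory stretches are usually free of it. Short zones of raised CHH methylation, called mCHH islands, are known from maize at the edges of methylated DNA close to genes. No gene annotation of B73 RefGen_v3 was used here, so the bins are given by position only, as the deposited table numbers them, and no source used here says whether that numbering counts from 0 or 1.

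The bins are called B1 to B9 in order along the chromosome. B1 runs from 4309438 to 4310437. B2, from 4397438 to 4398437, and B3, from 4398438 to 4399437, adjoin and form 1 stretch, so the 9 bins make 8 stretches. B4 runs from 4437438 to 4438437 and B5 from 4493438 to 4494437. B6, from 4504438 to 4505437, and B7, from 4506438 to 4507437, are 1000 bp apart with no listed cytosine between them. B8 runs from 4530438 to 4531437 and B9 from 4545438 to 4546437. The widest interval between neighbouring stretches was the 87000 bp that separate B1 from B2.

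The name "1 kb stretch" holds for the grid and less for what was read. Listed cytosines formed 1 to 4 patches per bin (cytosines no more than 50 bp apart), and these patches covered 113 to 632 bp of each 1 kb with a median of 371 bp. In the other 170 bins they covered a median of 781 bp. B7 rested on 9 cytosines between 4507350 and 4507406, a span of 57 bp, and B2 on 48 cytosines within 109 bp. B4 was read over the longest span, with 78 cytosines over 996 bp, though its listed cytosines formed 4 patches that covered 632 bp. Most of the DNA in these bins was thus not measured, and unmethylated describes the patches.

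Inside the bins 16 of 1477 CG reads were methylated, or 1.08% (0.668 to 1.75). By rule, every bin was at 5% or less, as were 5.03% of all scorable bins. B1, B2, B3, B6 and B7 had no methylated CG read. In B1 that was 0 of 121 reads, which allows a level of up to 2.48%, and in B6 it was 0 of 223, which allows up to 1.35%. In B7 it was only 0 of 25 reads, which allows up to 12.0%. B5 had 6 of 543 reads methylated (1.10%), B9 2 of 154 (1.30%) and B4 4 of 170 (2.35%). The bin nearest the limit was B8, with 4 of 96 (4.17%, 1.63 to 10.2). The next bin above the limit, from 4553438, stood at 11.8% (6.08 to 21.5, 11 CG cytosines), so the 5% limit falls in a gap between bins. The number of bins depends on the read minimum, with 15 at a minimum of 3 reads and 2 at a minimum of 10.

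In the bins 14 of 517 cytosines had any methylated read. They were 9 of 189 CG, 3 of 133 CHG and 2 of 195 CHH cytosines, and none exceeded 33.3%. In B8 the methylated reads sat at neighbouring cytosines, at 4531304, 4531305 and 4531316, with 2 of 6 reads at each. In B4 they sat at 4437455, 4437467 and 4437472, with 2 of 13, 2 of 16 and 2 of 14 reads. The table does not give single reads, so whether neighbouring cytosines were methylated on the same reads is not known.

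CHG methylation, which played no part in the choice, was missing from the same bins. It stood at 0.450% in the bins (5 of 1112 reads, 0.192 to 1.05, 133 cytosines), at 58.1% in the 2 kb on each side (55.8 to 60.3, 249 cytosines) and at 71.1% in the rest of the region (70.7 to 71.6, 4725 cytosines). The difference between bins and flanks was -57.6 percentage points (-59.8 to -55.3). B5 had the most reads, 0 of 432, which allows up to 0.694%. B1 had 0 of 50, B2 0 of 69, B3 0 of 45, B7 0 of 15 and B9 0 of 122 methylated CHG reads. B4 had 2 of 196 (1.02%), B6 1 of 99 (1.01%) and B8 2 of 84 (2.38%). All 8 of the bins with at least 5 CHG cytosines were at 5% CHG or less, as were 5.14% of the 175 bins that could be scored for CHG, a single bin beyond these 8. That bin was the one from 4553438, the nearest by CG level, at 1.08% CHG. Among the other 170 bins the median CHG level was 73.5%.

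CHH methylation was also lower in the bins than around them. It stood at 0.196% in the bins (3 of 1527 reads, 0.0668 to 0.576, 195 cytosines), at 3.55% in the flanks (247 of 6956 reads, 3.14 to 4.01) and at 1.97% in the rest of the region (1.90 to 2.05). The difference between bins and flanks was -3.35 percentage points (-3.83 to -2.80). All 3 methylated CHH reads lay in B5, at 2 cytosines followed by A. The other bins had none, in 55 to 284 reads apart from B7 with 5. These counts allow up to 1.06% in B4 and up to 5.45% in B3. Of the 8 bins with at least 5 CHH cytosines, 7 had no methylated CHH read, as did 7.3% of all 178 bins scored for CHH. A bin with few CHH reads reaches 0 more easily, and the bins were not matched for reads. Counting all contexts together, 24 of 4116 base calls in the bins were methylated, or 0.583%. That share includes any unconverted or misread base, and no source used here gives the conversion rate of the library.

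**Figure D1:**
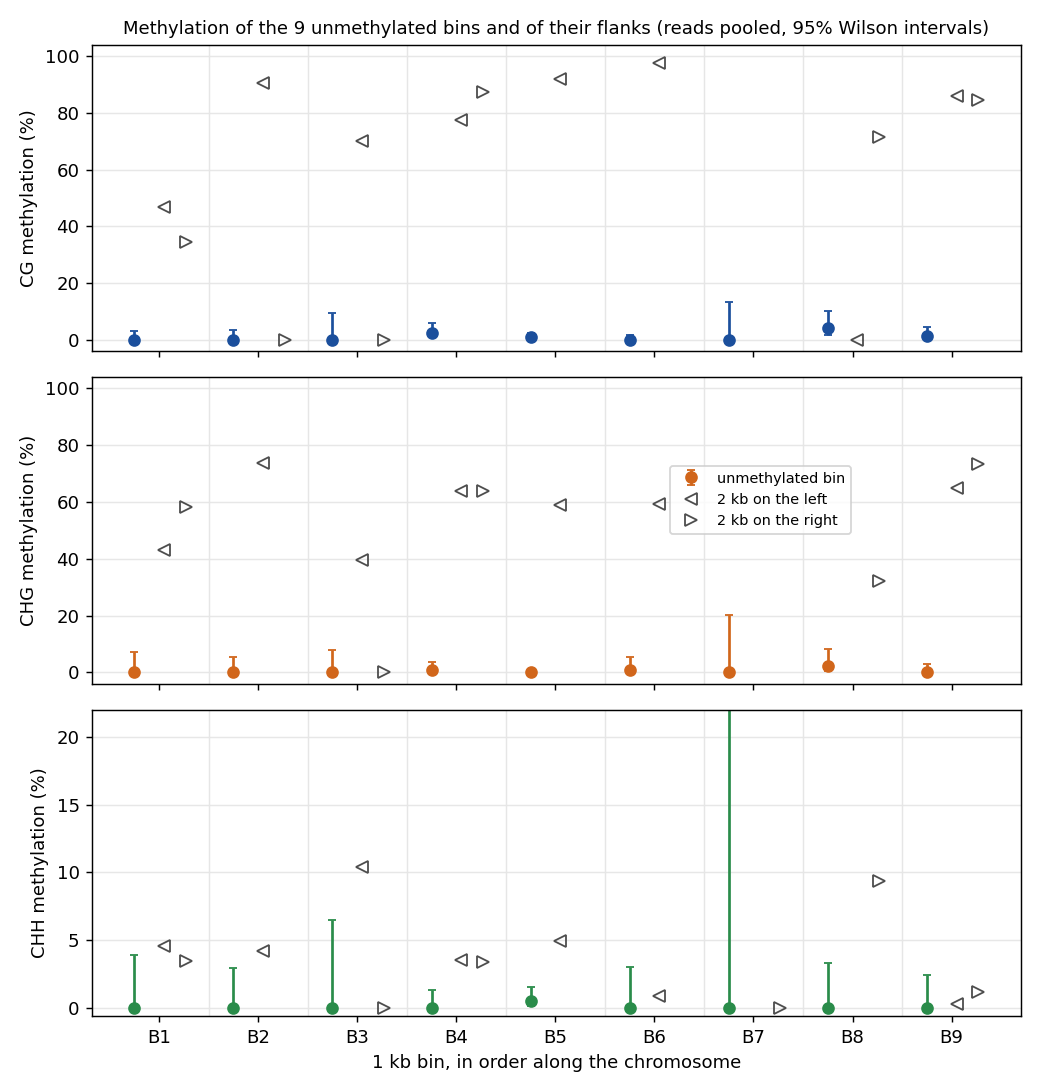
Methylation level in percent (vertical axis, 1 panel per context) of the 9 unmethylated bins (filled points, 95% Wilson intervals) and of the 2 kb to their left and right (open triangles), in order along the chromosome. CHG and CHH are at or near 0 in the bins, as CG is, while most flanks lie high in CG and CHG. Flank CHH was at 5% or less in 10 of the 12 sides with at least 5 CHH cytosines. Flanks without a triangle had no cytosine of that context with at least 5 reads, and the CHH interval of B7 runs beyond the axis to 43.4%.

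The cytosines of 3 or 4 reads, which the choice left out, gave the same picture. In the bins 6 of 858 CG reads at 250 such cytosines were methylated, or 0.699% (0.321 to 1.52). In the flanks the level at such cytosines was 58.7% (55.5 to 61.8, 275 cytosines) and in the rest of the region 87.6% (86.9 to 88.2). CHG stood at 1.22% in the bins (9 of 735 reads), 44.0% in the flanks and 69.4% in the rest, and CHH at 0 of 1136 reads in the bins (up to 0.264%), 3.06% in the flanks and 1.93% in the rest. In the flanks CG was thus lower at shallow cytosines, 58.7%, than at those with at least 5 reads, 82.0%. The corresponding values in the rest of the region were 87.6% and 89.5%. Shallow and deeper cytosines of a bin can be covered by the same reads and are not independent.

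The subclasses of CHG were all near 0 inside the bins. CCG, the CHG site whose partner strand reads CG, was methylated at 3 of 310 reads (0.968%), CTG at 2 of 436 (0.459%) and CAG at 0 of 366, which allows up to 0.820%. In the flanks the same sites stood at 37.0% for CCG, 64.0% for CTG and 66.2% for CAG, and in the rest of the region at 53.2%, 78.0% and 78.6%. CHH in the flanks was 4.58% for CA, 3.95% for CT and 1.66% for CC, against 3.20%, 1.70% and 0.913% in the rest of the region.

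The bins were rich in CG. CG made up 36.6% of their cytosines (32.5 to 40.8, 189 of 517), 21.8% of those in the flanks (19.8 to 24.0, 321 of 1472) and 21.1% of those in the rest of the region (20.6 to 21.6). The difference between bins and flanks was 14.7 percentage points (10.2 to 19.4). The share was above the median of the other 170 bins, 21.4%, in 9 of 9 bins. It was 55.6% in B7, 50.7% in B6, 45.3% in B1, 35.4% in B2, 35.4% in B9, 34.2% in B5, 30.2% in B8, 26.9% in B4 and 25.9% in B3. Only 4 of the other 170 bins exceeded the median of the 9, which was 35.4%. All scorable bins had to hold at least 5 CG cytosines, and a bin with few cytosines needs a high share to reach that number, which bears on B7 with 5 of 9. With all listed cytosines counted, CG made up 33.6% in the bins (31.1 to 36.2, 439 of 1307), 20.3% in the flanks and 20% in the rest.

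The other bases after the cytosine were fewer in turn. CA made up 21.9% of cytosines in the bins and 29.8% in the flanks, a difference of -7.90 percentage points (-12.0 to -3.50). CT made up 22.1% and 27.2%, a difference of -5.19 (-9.28 to -0.818). For CC, at 19.5% in the bins and 21.2% in the flanks, the interval of the difference included 0 (-5.51 to 2.496). As background, methylated cytosine in CG is prone to mutate to T, which leaves CA on the opposite strand.

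Coverage of the bins was low apart from B5. Reads per cytosine averaged 13.3 in B5, 8.33 in B4, 6.77 in B8, 6.62 in B9, 6.31 in B2, 5.77 in B6, 5.04 in B3, 5.02 in B1 and 5 in B7, over cytosines with at least 5 reads. The median of the other 170 bins was 8.08, and 2 of the 9 bins, B4 and B5, were above it. Pooled over cytosines the means were close, at 7.96 ± 4.09 in the bins and 7.72 ± 2.85 in the flanks (SD over cytosines), a ratio of 1.03. Without B5 the ratio was 0.836, so 1 bin set its direction. Of the listed cytosines, 39.6% reached 5 reads in the bins, 50.1% in the flanks and 62.6% in the rest of the region. In B7 that share was 11.5% and in B1 19.2%, against 80.7% in B5. Without unprecipitated DNA, recovery with CENH3 and the mappability or base composition of the DNA cannot be told apart in these values.

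Reads were also uneven between strands. Of the cytosines kept in the bins, 37.1% lay on the forward strand (192) and 62.9% on the reverse strand (325), where the rest of the region had 49.9% and 50.1%. B3 had 0 forward cytosines, B8 had 1 of 43 and B7 had 1 on the reverse strand. On the forward strand of the bins CG stood at 0.497% (73 cytosines) and on the reverse strand at 1.49% (116 cytosines).

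**Figure D2:**
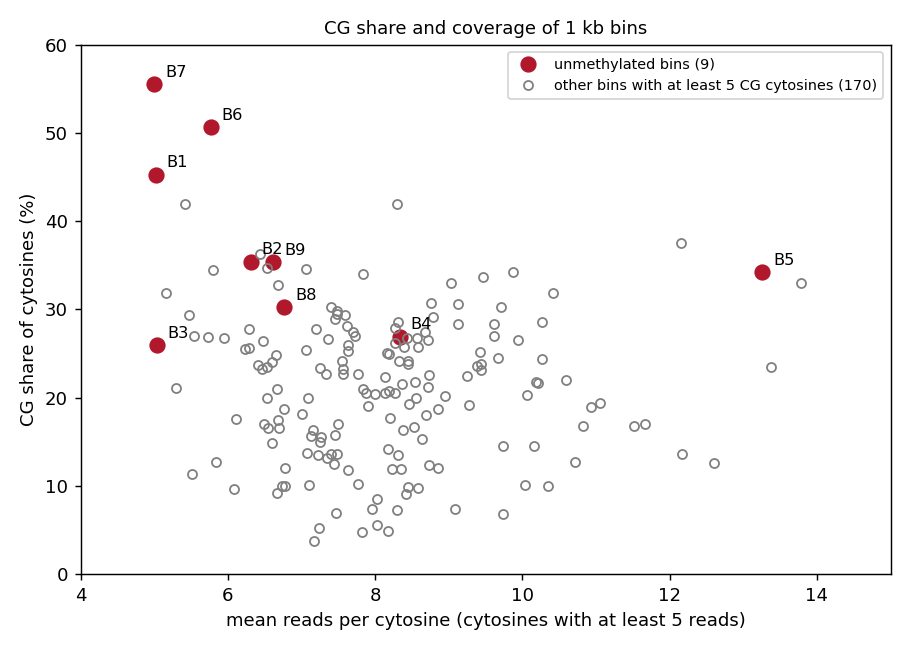
CG share of cytosines in percent against mean reads per cytosine for the 9 unmethylated bins (filled, named) and the other 170 bins with at least 5 CG cytosines (open). The 9 bins lie in the upper part, all above the other bins' median of 21.4%, and 7 of them lie to the left of the other bins' median coverage of 8.08 reads; B5 stands apart at 13.3 reads.

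The flanks differed between bins. Of 18 sides of 2 kb, 12 held at least 5 CG cytosines outside any chosen bin, with CG levels from 0% to 97.6% and a median of 81.0% (the left sides of B2 and B3 share 1 kb). CG stood at 97.6% to the left of B6, at 91.9% to the left of B5 and at 90.5% to the left of B2. It stood at 77.6% and 87.4% on the left and right of B4, and at 86.1% and 84.4% on the left and right of B9. To the right of B8 it was 71.4%. B1 lay between sides of 46.7% and 34.4% from 7 and 5 CG cytosines. To the right of B3 it was 0 of 33 reads over 5 cytosines, which allows up to 9.09%. Only 1 of these cytosines lay within 1 kb of B3, so the DNA between was mostly not read.

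Missing coverage closed several stretches. After the last listed cytosine of B5, at 4493805, the next lay 5701 bp farther on. The last of B6 and the first of B7 lay 2351 bp apart, and the first of B8 lay 1909 bp from its neighbour on the left. Runs of neighbouring CG cytosines at 20% or less show how far the low levels reached on what was read. The run that holds B1 spanned 1411 bp with 29 CG cytosines, from 4309252 to 4310662. B2 and B3 shared a run of 4678 bp with 36 CG cytosines, from 4397395 to 4402072, in which the widest interval without a CG cytosine was 1385 bp. B4 sat in a run of 1080 bp with 25 CG cytosines and B9 in one of 817 bp with 25. The run of B5 continued beyond its gap to 4500156. The run of B6 and B7 crossed an interval of 20982 bp without a CG cytosine of 5 reads, so its length is not given.

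Borders were placed from CG cytosines alone, as the single step in level with the largest binomial likelihood between the middle of a stretch and 2 kb beyond its edge, with at least 5 CG cytosines on each side and a level of at least 50% outside. The contrast in CG level across a placed border is therefore largely a description of this placement. Of 16 sides, 9 could be placed and 7 could not, for want of CG cytosines or of a methylated level outside. The last CG cytosine inside and the first outside lay 18 to 1106 bp apart, with a median of 230 bp, and in 5 borders they lay less than 250 bp apart. Those were the left borders of B2, B4 and B5 and the right borders of B4 and B8. The wider ones were the left border of B9 (534 bp between these CG cytosines), the left border of B6 (647 bp), the right border of B9 (705 bp) and the left border of B1 (1106 bp).

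At the best resolved border the CG level changed within 18 bp. To the right of B4 the last CG cytosine inside, at 4438511, had 0 of 7 reads methylated, and the one beside it had 0 of 10. The first outside, at 4438529, had 8 of 10 reads methylated and its neighbours 8 of 9, 8 of 10 and 9 of 10. To the left of B4 the step lay between 0 of 6 reads at 4437432 and 5 of 5 reads at 4437364, 68 bp apart. To the left of B5 it lay between 0 of 5 reads at 4493428 and 9 of 9 reads at 4493347, 81 bp apart. To the left of B2 the CG cytosines at 4397395 and 4397242, 153 bp apart, stood at 0 of 5 and 5 of 5, and the cytosine on the other strand of that outer CG site, at 4397241, at 4 of 6. On each of these 4 sides the CG cytosine next to the step on the inside was at 0%. To the left of B4, all cytosines with at least 5 reads within 250 bp inside lay on the reverse strand. All those within 250 bp outside lay on the forward strand, so neither strand was read on both sides of that step.

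**Figure D3:**
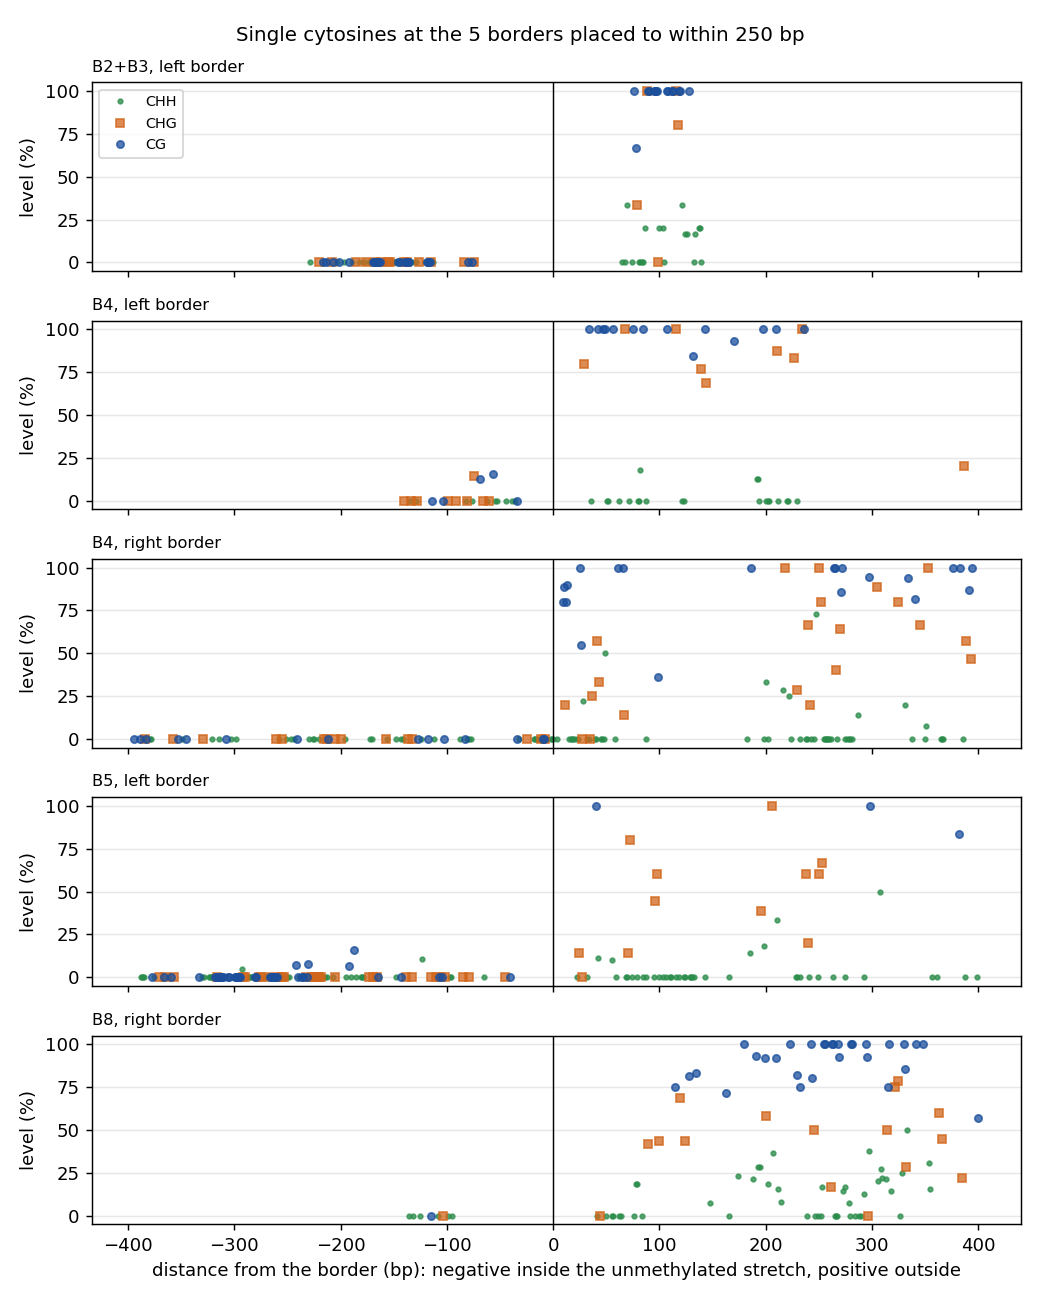
Methylation level in percent of single cytosines with at least 5 reads against distance from the border in bp (negative inside, positive outside), for the 5 borders whose CG cytosines lie less than 250 bp apart. CG cytosines (circles) are near 0 inside and mostly above 75% outside, CHG cytosines (squares) spread widely outside, and CHH cytosines (dots) above 0 lie almost all outside.

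CHG was also higher outside the same borders, at a lower level than CG. Within 250 bp of the border, midway between the CG cytosines beside it, CHG stood at 0.345% inside (2 of 580 reads, 54 cytosines) and at 49.9% outside (190 of 381 reads, 42 cytosines). The step was 49.5 percentage points (44.4 to 54.5). Within 100 bp, which takes in cytosines between the CG sites beside the border, it was 30.9. CG within 250 bp was 2.07% inside and 90.2% outside, values largely set by the placement of the borders from CG. The 5 borders with cytosines that near differed, with CHG outside at 83.6% to the left of B4, 63.0% to the left of B2, 47.2% to the right of B8, 38.4% to the left of B5 and 37.5% to the right of B4. The intervals of the left border of B4 (72.9 to 90.6) and the right border of B4 (29.1 to 46.7) did not overlap, though they rest on only 8 and 12 cytosines whose reads are not independent. The 8 to the left of B4 all lay on the forward strand. To the right of B8 the 7 CHG cytosines outside lay on the reverse strand and the 1 inside, with 5 reads, on the forward strand. To the right of B4 the cytosines nearest the border showed both contexts side by side. The CHG cytosine 2 bp beyond the first methylated CG had 2 of 10 reads methylated.

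CHG was lowest next to the border and highest farthest out, with no even gradient between. Counted from the midpoint, it was 32.3% from 0 to 100 bp (26.1 to 39.2, 5 borders), 67.7% from 100 to 250 bp (60.8 to 74.0, 5 borders), 56.6% from 250 to 500 bp (51.5 to 61.6), 66.9% from 500 to 1000 bp (63.0 to 70.5) and 77.1% from 1000 to 2000 bp (73.01 to 80.8). The level from 250 to 500 bp was thus below that of the steps on either side. Counted from the first methylated CG cytosine outward, a distance chosen after the values were seen, it was higher in each step, 49.8% from 0 to 100 bp (44.0 to 55.7), 59.7% from 101 to 250 bp (53.5 to 65.5), 62.8% from 251 to 500 bp (57.1 to 68.1), 66.2% from 501 to 1000 bp (62.1 to 70.1) and 81.2% from 1001 to 2000 bp (77.6 to 84.4). From 0 to 100 bp, 9 borders had cytosines of any context, but the right border of B9 had no CHG cytosine there. CG over the steps counted this way was 89.9%, 95.3%, 87.0%, 83.8% and 95.04%, with no such gradient. To the right of B8 the DNA from 500 to 1000 bp beyond the midpoint was nearly unmethylated again. It had 1 of 62 CG, 0 of 33 CHG and 0 of 113 CHH reads methylated, which lowers the pooled levels of that step. Between the CG cytosines on either side of a border, 17 CHG cytosines stood at 28.5% (35 of 123 reads). The borders that supply cytosines change from step to step, so the steps do not compare the same places.

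CHH methylation outside the borders, pooled over them, was highest between about 100 and 250 bp. Within 250 bp it stood at 0.262% inside (2 of 762 reads, 83 cytosines) and at 6.21% outside (71 of 1143 reads, 4.95 to 7.76, 130 cytosines), a step of 5.95 percentage points (4.51 to 7.51). That is above the 3.55% of the flanks as a whole and the 1.97% of the rest of the region. By distance from the midpoint, CHH was 3.24% from 0 to 100 bp (2.04 to 5.13), 8.72% from 100 to 250 bp (6.75 to 11.2), 4.88% from 250 to 500 bp (3.69 to 6.42), 3.52% from 500 to 1000 bp (2.83 to 4.37) and 1.81% from 1000 to 2000 bp (1.35 to 2.41). The 100 bp nearest the border thus stood slightly below the flanks as a whole. Counted outward from the first methylated CG cytosine, the distance chosen later, CHH was 5.05% from 0 to 100 bp (3.77 to 6.74), 7.82% from 101 to 250 bp (6.06 to 10.05), 1.97% from 251 to 500 bp (1.28 to 3.02), 3.58% from 501 to 1000 bp (2.86 to 4.48) and 1.956% from 1001 to 2000 bp (1.47 to 2.60). By both distances the highest step ended at 250 bp, while the level beyond it differed between them. Single borders did not all share this position. From the midpoint, CHH was highest from 100 to 250 bp to the left of B2 and to the right of B4 and B8. To the left of B5 it was 2.73% there and 8.08% from 500 to 1000 bp. To the left of B4 it was 2.08% there and 4.18% from 1000 to 2000 bp. The right border of B8 gave 33 of the 47 methylated reads from 250 to 500 bp. Inside, CHH was 0.410% or less in each step up to 500 bp by either. The size of the step within 250 bp was not stable. It was 2.01 percentage points when the bins started 500 bp farther right (7 borders placed), 2.85 with at least 10 reads per cytosine (2 borders placed), and 3.24 within 100 bp with the borders unchanged. The main value came from 5 of 9 placed borders, and the number with cytosines that near was not counted under the first 2 of these settings.

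**Figure D4:**
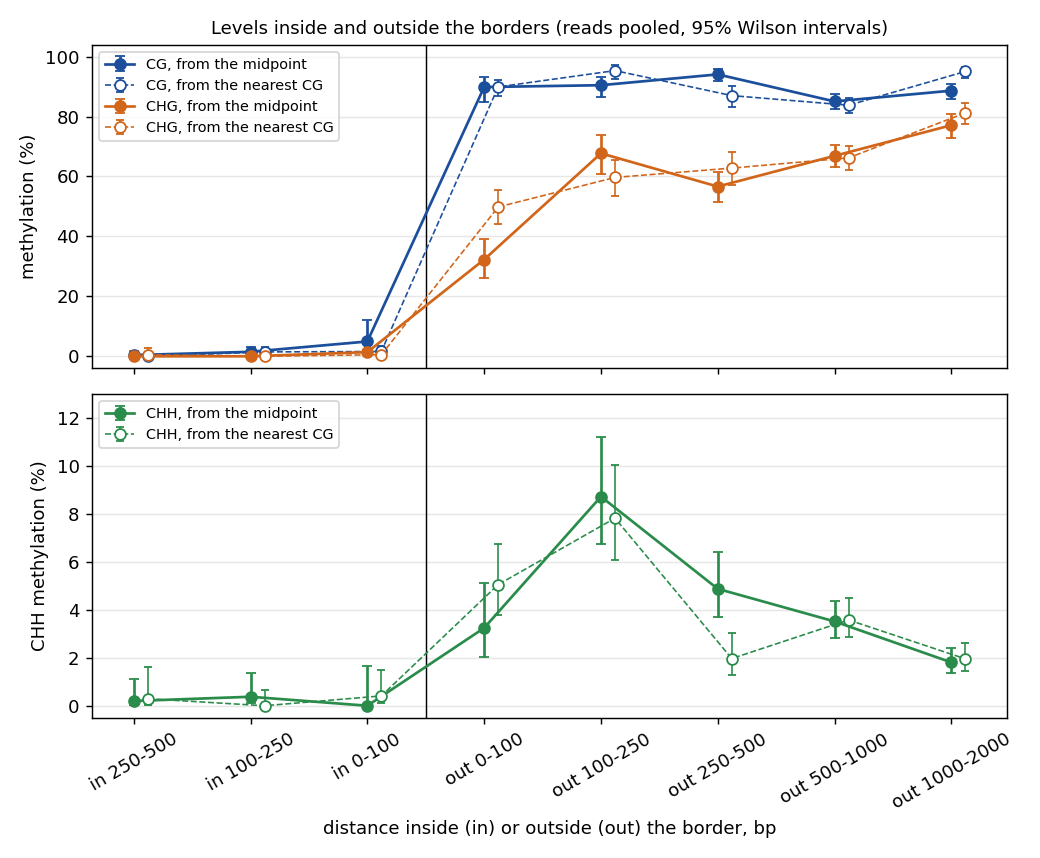
Pooled methylation level in percent with 95% Wilson intervals by distance in bp inside (left of the line) and outside (right) the borders, counted from the midpoint (filled, solid) or from the nearest CG cytosine beside the border (open, dashed, steps begin 1 bp later). CG is at 83.8% or more in every outer step, CHG from the midpoint is at 32.3% nearest the border and 77.1% farthest out with a dip to 56.6% from 250 to 500 bp, and CHH is highest in the second outer step by both distances, at 8.72% and 7.82%.

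The higher CHH level was not seen at all borders. It was 11.3% to the right of B8 (28 of 247 reads, 7.96 to 15.9), 10.9% to the left of B2 (12 of 110 reads, 6.35 to 18.1) and 6.74% to the right of B4 (19 of 282 reads, 4.36 to 10.3). It was 2.40% to the left of B5 (8 of 333 reads, 1.22 to 4.67) and 2.34% to the left of B4 (4 of 171 reads, 0.913 to 5.86), close to the rest of the region. So 3 of 5 borders stood at 5% or more, as did 7.62% of 538 steps of 250 bp away from the bins and flanks (median 1.34%), a limit set after the values were seen. Leaving out the right border of B8 lowered the pooled level to 4.80%, and leaving out the left border of B5 gave 7.78%. The methylated reads were spread over 35 of the 130 cytosines. Only 2 of these were at 50% or more, and without them the level was 5.33%. By the following base it was 9.27% for CA, 4.15% for CT and 4.35% for CC (52, 53 and 25 cytosines). To the right of B8 the inside within 250 bp rested on 6 CHH cytosines with 0 of 30 reads methylated, which allows up to 10%. All 6 lay on the forward strand, while outside every cytosine nearer than 243 bp lay on the reverse strand.

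Pooled over the borders, CG share and coverage changed less than methylation did, while single borders differed in both directions. Within 250 bp CG made up 27.1% of cytosines inside (21.3 to 33.9) and 23.6% outside (18.5 to 29.5), and these intervals overlap. Mean coverage there was 9.71 reads inside and 8.91 outside. These values come from the 5 borders with cytosines that near. They do not describe the placed left borders of B1, B6 and B9 and the right border of B9, which had none. Nor do they describe the 7 sides without a border, left out for want of CG cytosines or of a methylated level outside.

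The bins just above the limit held low and high CG cytosines in varying shares. After the bin from 4553438, the next were those from 4552438 at 33.0% CG, from 4475438 at 37.6%, from 4537438 at 38.8% and from 4499438 at 43.5%. In the bin from 4475438, 21 of 45 CG cytosines were at 20% or less and 12 at 80% or more, and CHG stood at 5.89%. In the bin from 4499438, which begins the coverage on the far side of the gap after B5, 11 of 25 were at 20% or less and 7 at 80% or more, with CHG at 12.3% and CHH at 7.42%. In the bin from 4537438, 25 of 49 lay between these limits, more than in any other of the 5.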

How the data were processed

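Per the file headers, the deposited table holds chromosome, strand base, position, context, the following base, the methylation level as a fraction (0 to 1) and raw read counts per cytosine of the 1 bisulfite-CENH3-ChIP library. The authors' methylated read count and total count are not normalized, and the deposited fraction equalled their ratio at every cytosine (0 differed by more than 1e-06). It lists 43778 cytosines with 3 to 36 reads (median 5). CASAVA, BWA 0.6.1 and B73 RefGen_v3 are named in the submitters' processing notes without a role. No source used here gives the methylation caller, the trimming, duplicate removal or the handling of multiply mapped reads. Reads of other repeat copies, and variants of the plant against the reference, can enter the levels.

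Levels are methylated over total reads at cytosines with at least 5 reads. Flanks are the 2 kb on each side of a bin, outside any chosen bin, each cytosine counted once. Intervals of levels are Wilson and those of differences Newcombe 95% intervals, and a count of 0 is read as at most 3 counts. With 1 library no test was run. Every chosen bin and border is named, and so are the 5 bins just above the limit. The bins and measures were chosen with earlier results of these data known. Alternatives changed the read minimum, bin size and start, CG limits, flank width, weighting and border distances. Python 3.11.15, scipy 1.17.1, pandas 2.3.3, matplotlib 3.10.9 and numpy 2.4.6 were used.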

Additional observations from a re-analysis of the deposited data

How the results depend on the processing

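The number of unmethylated bins was 15 with at least 3 reads per cytosine and 2 with at least 10 reads; it was 11, 8, 9 and 7 with 500 bp bins, bins shifted by 500 bp, a limit of 10% CG and at least 10 CG cytosines. CHG and CHH were lower in the bins than in the flanks, and the CG share higher (by 10.5 to 16.3 percentage points), under every alternative run. The CHG difference was -55.1 with at least 10 reads, -50.6 with shifted bins and -53.7 with 1 kb flanks, and -61.7 to -54.0 when single bins were left out. The CHH difference was -3.89 with at least 10 reads and -2.69 with shifted bins, and -4.03 to -2.74 without single bins. The coverage ratio changed direction, at 0.884 with at least 3 reads and 0.983 with 1 kb flanks, was 1.19 with at least 10 reads and 1.09 with shifted bins, and ranged from 0.836 to 1.08 without single bins. The CHG step at the border was 43.3 with at least 10 reads (2 borders placed), 42.2 with shifted bins (7 borders placed) and 30.9 within 100 bp, where the midpoint distance takes in cytosines between the CG sites, and 45.5 to 52.5 without single bins. The CHH step was 2.85, 2.01 and 3.24 under the same settings and 4.53 to 7.78 without single bins; it stayed above 0 in each, and the cause of its change in size was not tested. 2 settings were chosen after seeing the data: distance counted from the CG cytosines beside the border, with steps of 54.3 for CHG and 6.12 for CHH, and omission of CHH cytosines of at least 50%, with a CHH step of 5.07. No paired analysis was possible because the series has 1 methylation library.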

Other observations

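Runs of at least 5 neighbouring CG cytosines at 20% or less also occurred outside the 9 bins. Of 15 such runs, 7 held the chosen bins and 8 held none of their cytosines, and 3 of these 8 had at least 10 CG cytosines. The run from 4475492 to 4475805 had 20 CG cytosines over 314 bp at a mean of 12.9 reads per cytosine, with CHG at 0.581% over 38 cytosines and CHH at 0.333% over 71. The run from 4475295 to 4475377 had 13 CG cytosines over 83 bp, and a single CG cytosine at 28.6% lay directly beyond it, at 4475378. The run from 4537676 to 4537954 had 16 CG cytosines over 279 bp with CHG at 1.03% over 11 cytosines. The 1 kb bins that hold these runs stood at 37.6%, 68.2% and 38.8% CG, in the same order, so they were not among the 9. Of the 8 runs without cytosines of the bins, that from 4531443 to 4532128, with 5 CG cytosines, began just beyond B8. It lay inside the placed right border of B8. No explanation was tested.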
